A study of Mus musculus with 8 samples.

Results

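The genes described here encode the enzymes and shared subunits that act against polycomb repression. They are the H3K27 demethylases Kdm6a and Kdm6b, the trithorax-type H3K4 methyltransferases Kmt2a, Kmt2b, Kmt2c and Kmt2d, and the core subunits Wdr5, Ash2l, Rbbp5 and Dpy30. Each was taken as the locus of the deposited RNA-Seq table whose most frequent gene name was that symbol. All 10 were found, at 1 locus each, among 44396 loci, and all 10 passed the count filter together with 20350 loci in all. No exon of the 10 loci overlapped an exon of another locus. The cells were mouse embryonic stem cells (mESCs) that carry GFP under the Oct4 promoter and were grown without feeders on gelatin. Their medium held serum replacement, and the study's methods describe a condition with leukaemia inhibitory factor and the inhibitor pair called 2i. The control cells received the saline vehicle (0.9% NaCl) and the treated cells 10 µM morphine, an opioid receptor agonist, for 24 h, and both were collected at the end of the treatment. Poly(A) RNA-Seq and H3K27me3 ChIP-Seq were each done on 2 control and 2 morphine libraries. The study's methods call the ChIP-Seq replicates biological and the RNA samples duplicates. Neither they nor the labels say whether the RNA duplicates were separate cultures, so p-values of the RNA comparison measure the spread between these libraries, which may be technical.

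Trimethylation of lysine 27 of histone H3 (H3K27me3) is laid down by polycomb repressive complex 2 (PRC2) and marks silent developmental genes. KDM6A (UTX) and KDM6B (JMJD3) remove this mark. KMT2A and KMT2B (MLL1 and MLL2) methylate lysine 4 of H3 at promoters, and KMT2C and KMT2D (MLL3 and MLL4) mainly monomethylate it at enhancers, in complexes that also hold KDM6A. WDR5, RBBP5, ASH2L and DPY30 form the core shared by all of these methyltransferase complexes. In embryonic stem cells many developmental promoters carry both marks, and unmethylated CpG-rich DNA is a common site of PRC2 binding and of trithorax complexes with CXXC domains.

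H3K27me3 peaks lay within 5 kb of the 5′ end in all 4 ChIP-Seq libraries at 3 of the 10 loci, Kmt2c, Kmt2a and Kdm6b, and the sequences at these places differ in their CG dinucleotides. The stretches below lie upstream of gene starts and are shown, with every CG in capitals, because CG content differs widely between them. For 7 of the 10 genes RefSeq (GRCm38.p6, the mm10 coordinates) has a promoter entry of 300 bases, from 250 before to 50 after a start. The 250 bases before the start of Kmt2c, at chr5:25498784-25499033 on the minus strand, are the most CG-rich of the set. The Kmt2a stretch is at chr9:44881290-44881539 on the minus strand. The Kdm6a stretch, at chrX:18162325-18162574 on the plus strand, comes from a locus with no peak nearby.
Kmt2c upstream: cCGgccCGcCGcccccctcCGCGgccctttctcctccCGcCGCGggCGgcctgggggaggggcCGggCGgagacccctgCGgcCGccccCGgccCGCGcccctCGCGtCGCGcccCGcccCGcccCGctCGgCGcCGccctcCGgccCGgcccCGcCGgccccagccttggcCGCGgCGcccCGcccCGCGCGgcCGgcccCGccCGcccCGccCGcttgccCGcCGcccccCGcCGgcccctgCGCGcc
Kmt2a upstream: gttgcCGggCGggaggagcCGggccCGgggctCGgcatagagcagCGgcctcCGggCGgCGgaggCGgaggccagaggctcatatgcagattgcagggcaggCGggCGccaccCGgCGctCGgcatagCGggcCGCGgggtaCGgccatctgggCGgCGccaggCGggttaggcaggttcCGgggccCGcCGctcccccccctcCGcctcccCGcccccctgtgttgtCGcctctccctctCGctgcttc
Kdm6a upstream: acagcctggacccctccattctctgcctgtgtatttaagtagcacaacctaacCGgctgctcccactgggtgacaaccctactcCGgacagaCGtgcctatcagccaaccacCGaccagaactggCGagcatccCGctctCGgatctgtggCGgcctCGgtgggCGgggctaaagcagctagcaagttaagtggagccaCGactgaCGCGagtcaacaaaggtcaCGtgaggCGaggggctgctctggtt
CG was searched as the letters CG, which read the same on both strands. The full 300 bases held 56 CG at Kmt2c, and 0.195% of the 32851 RefSeq promoters of that length held at least as many. Kmt2a had 36 (6.23% of promoters with at least as many) and Kdm6a 21 (24.8%), against a median of 7. The entries of Kmt2d, Wdr5 and Rbbp5 held 27, 22 and 16 CG. Dpy30 has 4 entries, of which 3 held 39, 34 and 30 CG and the one farthest upstream held 1. Like Kdm6a, the genes Kmt2d, Wdr5, Rbbp5 and Dpy30 had no peak within 5 kb of the 5′ end in any library. None of the printed upstream stretches was covered by a peak.

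The peak itself lay elsewhere at each gene. The bases covered in all 4 libraries were chr5:25495436-25498312 at Kmt2c (2877 bp, inside the gene and clear of GENCODE exons), chr9:44884115-44886584 at Kmt2a (2470 bp, upstream of the gene) and chr11:69409939-69411255 at Kdm6b (1317 bp, inside the gene). Shown here are the 200 bases richest in CG, outside annotated exons, of the first and second of these regions, at chr5:25498110-25498309 and chr9:44884917-44885116, each on the strand of the gene. They bring out how unlike these marked regions are.
Kmt2c peak: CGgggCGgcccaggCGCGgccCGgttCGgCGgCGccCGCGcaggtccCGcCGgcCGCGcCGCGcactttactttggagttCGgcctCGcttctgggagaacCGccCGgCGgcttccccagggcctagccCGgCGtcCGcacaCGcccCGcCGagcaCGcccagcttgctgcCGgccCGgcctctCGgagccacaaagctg
Kmt2a peak: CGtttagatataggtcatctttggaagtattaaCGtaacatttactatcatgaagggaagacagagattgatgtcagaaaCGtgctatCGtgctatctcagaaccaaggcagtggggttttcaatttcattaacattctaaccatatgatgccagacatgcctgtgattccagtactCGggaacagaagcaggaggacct
The first holds 31 CG and the second 5. Over the whole common region the density was 3.58 CG per 100 bp at Kmt2c, 0.729 at Kmt2a and 6.07 at Kdm6b. The median was 1.77 over the 5409 regions of the genome covered in all 4 libraries, of which 7.86% were at least as dense as Kmt2c, 82.6% as dense as Kmt2a and 0.444% as dense as Kdm6b. By the most CG in any 200-base window the order differed, with 31 at Kmt2c, 19 at Kdm6b and 5 at Kmt2a, and 8.69%, 34.8% and 84.3% of the same regions had a window with at least as many. The Kdm6b region includes an assembled exon of 180 bp of the gene (chr11:69410959-69411138), and the Kmt2a region holds an exon of 53 bp of AC061963.1, a transcript on the opposite strand.

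Messenger RNA of all 10 genes was readily measured in mESCs, and the shared subunits were the most abundant. Levels are compared between genes per length, as RPKM (CPM on the TMM library sizes, per kb of locus). Ash2l ranged from 186 to 196 RPKM over the 4 libraries and Dpy30 from 177 to 186, and these ranges overlapped. Wdr5 followed at 114 to 120 and Rbbp5 at 30.1 to 34.9, each apart from its neighbours in the order. The methyltransferases and demethylases were lower. Kmt2b stood apart at 19.0 to 20.2 RPKM. Kdm6a, at 10.3 to 13.1, and Kdm6b, at 10.6 to 11.8, overlapped each other. Kmt2a (5.21 to 5.93), Kmt2c (4.37 to 5.81) and Kmt2d (4.47 to 5.21) came last, and in this order each of these overlapped the next. Even Kmt2d lay above 56.2% of all tested loci, and Ash2l above 98.6%.

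**Figure D1:**
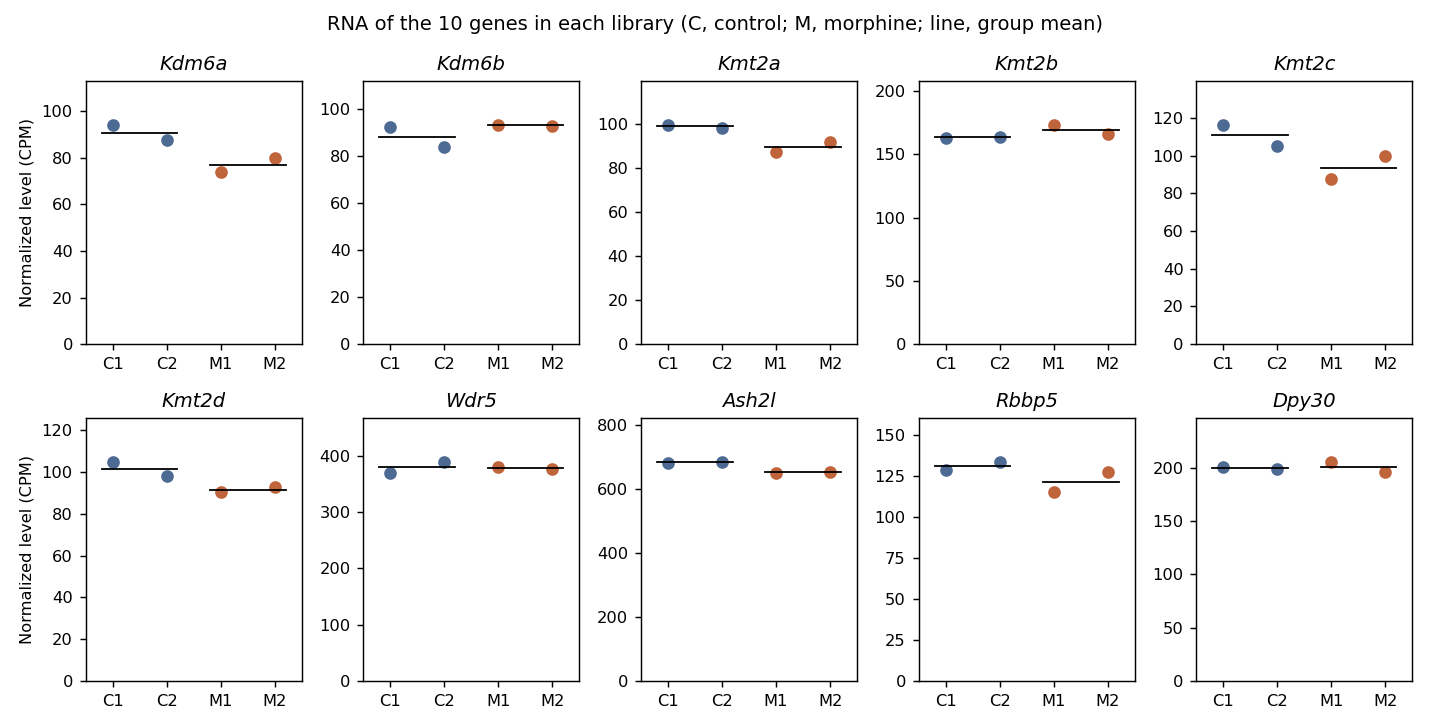
TMM-normalized level (CPM) of the 10 genes in each RNA-Seq library, 1 panel a gene with its own vertical axis from 0; points are the 2 control (C1, C2) and 2 morphine (M1, M2) libraries and lines are group means. Both morphine libraries lie below both controls in the panels of 6 genes and above them in those of 2.

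None of the 10 genes passed an adjusted p of 0.05 in edgeR's quasi-likelihood test of morphine against control. Over all tested loci, 184 fell, which is 0.904%, and 125 rose, which is 0.614%. At an unadjusted p under 0.05, 4 of the 10 were lower (Kdm6a, Kmt2a, Kmt2c and Kmt2d) and 0 were higher, against 10.8% and 9.7% of tested loci. Both morphine libraries were below both controls for 6 genes, where 26.8% of tested loci were, and above both for 2, where 26.0% were. The log2 fold changes ran from -0.24 to 0.078 with a median of -0.091, beside a median of 0.0013 over all tested loci. The median of the 10 was -0.021 with the length trend removed and -0.068 with length and GC trends removed. It was -0.055 without morphine replicate 1 and -0.12 without morphine replicate 2. In bulk RNA a smaller number of expressing cells and less RNA per cell cannot be told apart. Other tools called the genes with the largest differences. The edgeR exact test, in which 2.3% of tested loci fell, called Kdm6a lower (adjusted p = 0.036). DESeq2, which gave an adjusted p to 7330 loci, of which 5.02% fell, called Kdm6a (adjusted p = 0.0303) and Kmt2c (adjusted p = 0.0394) lower.

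Neither of the 2 demethylases passed the test, and their log2 fold changes had opposite signs except with length and GC trends removed, where both were below 0. Kdm6a, the X-linked enzyme that travels with the KMT2C and KMT2D complexes, had 94.2 and 87.6 CPM in the controls and 73.9 and 79.9 CPM after morphine. Both morphine libraries were low, at 84.6% of the control mean (90.9 ± 4.66 against 76.9 ± 4.30 CPM, SD, n = 2 each). The log2 fold change was -0.24 (SE 0.061, 95% confidence interval -0.37 to -0.11, edgeR adjusted p = 0.0671). The value depended on single libraries. Without control replicate 2 the log2 fold change was -0.29 (edgeR adjusted p = 0.00683), and without morphine replicate 1 it was -0.18 (edgeR adjusted p = 0.493). Loci of Uty, the Y-linked paralog of Kdm6a, had 0 reads in every library. Kdm6b, an inducible enzyme in many cell types, had 92.7 and 83.9 CPM in the controls and 93.4 and 93.0 CPM after morphine. The morphine libraries sat above the controls by less than the controls differed from each other. Its log2 fold change was 0.078 (SE 0.059, interval -0.050 to 0.21, edgeR adjusted p = 0.493), so a rise of more than 0.21 lies outside its interval. It was 0.15 without control replicate 1 (edgeR adjusted p = 0.422), 0.014 without control replicate 2 (edgeR adjusted p = 0.949) and -0.037 with length and GC trends removed (edgeR adjusted p = 0.835).

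Of the 4 methyltransferase genes, Kmt2c, Kmt2d and Kmt2a had lower values in both morphine libraries and Kmt2b had higher ones. Kmt2c had 116 and 105 CPM in the controls and 87.3 and 99.9 CPM after morphine, 84.5% of the control mean. The groups did not overlap, although the second morphine library was closer to the lower control than to the other morphine library. The log2 fold change was -0.24 (SE 0.070, interval -0.39 to -0.089, edgeR adjusted p = 0.0894). It was -0.31 without control replicate 2 (edgeR adjusted p = 0.00188) and -0.34 without morphine replicate 2 (edgeR adjusted p = 0.0477), whereas it was -0.15 without morphine replicate 1 (edgeR adjusted p = 0.564). Kmt2d, the other enhancer monomethylase, had 105 and 97.9 CPM in the controls and 90.3 and 92.7 CPM after morphine. Again both morphine libraries were the lower ones, by a log2 fold change of -0.15 (SE 0.055, interval -0.27 to -0.029, edgeR adjusted p = 0.158).

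Kmt2a, which keeps Hox genes active in development, had 99.6 and 98.4 CPM in the controls and 87.5 and 91.7 CPM after morphine. The controls were nearly equal and both morphine libraries lay below them, at 90.5% of the control mean (log2 fold change -0.14, SE 0.052, interval -0.26 to -0.030, edgeR adjusted p = 0.152). With the length trend removed its value was -0.024 (edgeR adjusted p = 0.838), and with length and GC trends removed -0.098 (edgeR adjusted p = 0.351). Kmt2b, the enzyme responsible for much of the H3K4 trimethylation at bivalent promoters in mESCs, had 163 and 164 CPM in the controls and 173 and 166 CPM after morphine. Its morphine libraries were the higher ones, with a log2 fold change of 0.053 (SE 0.048, interval -0.052 to 0.16, edgeR adjusted p = 0.577). It was 0.021 without morphine replicate 1 (edgeR adjusted p = 0.924), 0.085 without morphine replicate 2 (edgeR adjusted p = 0.448) and 0.13 with the length trend removed (edgeR adjusted p = 0.203).

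At the 4 core subunits the log2 fold changes stayed between -0.11 and 0.0081. Ash2l, which with RBBP5 stimulates the SET domain, had 681.5 and 686 CPM in the controls and 652 and 653.4 CPM after morphine. Its 2 groups were tight and apart, but only by a log2 fold change of -0.067 (SE 0.040, interval -0.15 to 0.020, edgeR adjusted p = 0.371). Rbbp5 had 129 and 134 CPM in the controls and 115 and 127 CPM after morphine. The second morphine library was nearly as high as the lower control (log2 fold change -0.11, SE 0.057, interval -0.24 to 0.012, edgeR adjusted p = 0.291). The value was -0.045 without morphine replicate 1 (edgeR adjusted p = 0.831) and -0.19 without morphine replicate 2 (edgeR adjusted p = 0.136). Wdr5, a WD40 scaffold that also serves other chromatin complexes, had 369.8 and 389.9 CPM in the controls and 380.0 and 376 CPM after morphine. Both morphine libraries lay between the controls (log2 fold change -0.0075, SE 0.045, interval -0.10 to 0.090, edgeR adjusted p = 0.950). Dpy30, the small subunit that binds ASH2L, had 201 and 199 CPM in the controls and 206 and 196 CPM after morphine, on either side of the controls (log2 fold change 0.0081, SE 0.047, interval -0.095 to 0.11, edgeR adjusted p = 0.949).

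**Figure D2:**
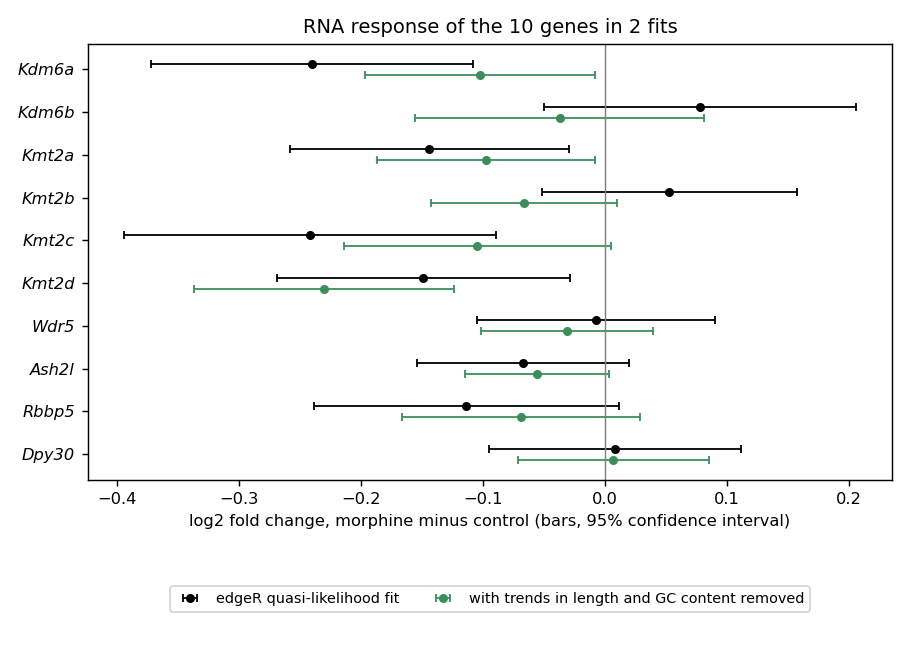
Log2 fold change (horizontal axis, morphine minus control) of each gene with its 95% confidence interval, in the edgeR quasi-likelihood fit (black) and in the same fit with each library corrected for trends with GC content and locus length (green). Kdm6a and Kmt2c move from -0.24 to -0.10 between the fits, Kmt2d moves from -0.15 to -0.23, and Kdm6b and Kmt2b change sign.

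The differences between libraries followed the GC content of the loci across the whole table. The median log2 fold change was -0.14 over the 5147 tested loci with at most 45% GC and 0.14 over the 4666 loci above 55%. Spearman's rho between GC content and log2 fold change was 0.485 across 20335 tested loci and 0.673 across the 10 genes, as a description, since loci share libraries and are not replicates. Kdm6a (43.2% GC over its exons) and Kmt2c (45.3%) are the most AT-rich of the 10, and Kmt2b (59.1%), Kdm6b (58.4%) and Kmt2d (58.3%) the most GC-rich. When each library was corrected for trends with GC content and locus length, Kdm6a had a log2 fold change of -0.10 (SE 0.043, edgeR adjusted p = 0.352) and Kmt2c of -0.10 (SE 0.050, edgeR adjusted p = 0.419). Kdm6b and Kmt2b then had values of -0.037 and -0.066, and 9 of the 10 were below 0 in place of 7. Of all loci, 49.2% were below 0 with this correction and 49.7% without it. Kmt2d lay low among loci of its base composition: its difference grew to -0.23 (SE 0.049, interval -0.34 to -0.12, edgeR adjusted p = 0.0740), and it passed with the replicate number also in the model (adjusted p = 0.0193). With only the length trend removed, by contrast, its value was -0.016 (edgeR adjusted p = 0.902). Its locus is the longest of the 10, at 20170 bp, followed by Kmt2c with 20002 bp, against a median of 2864 bp over tested loci.

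**Figure D3:**
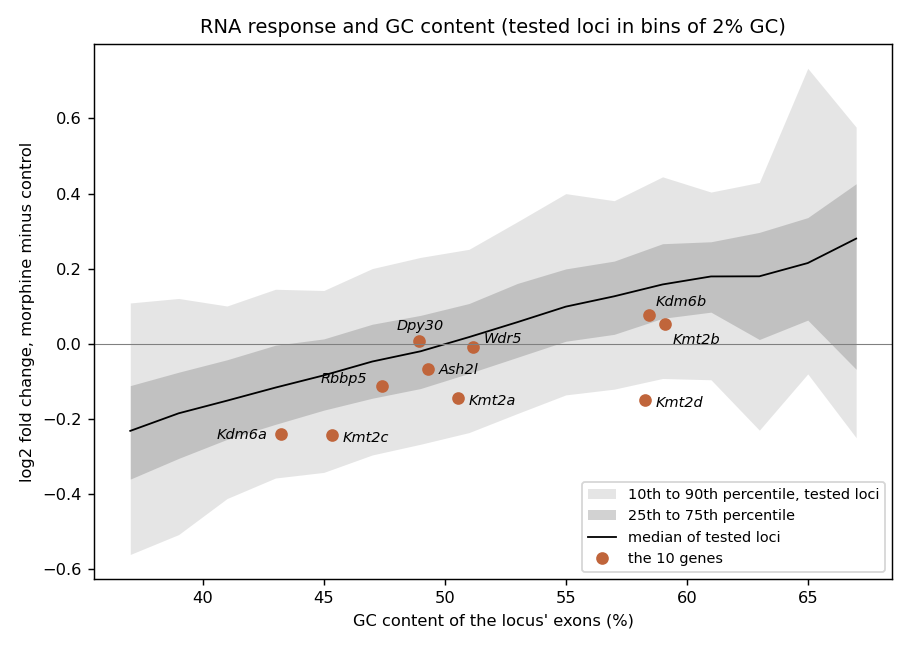
Log2 fold change (vertical axis, morphine minus control) against the GC content of the exons (horizontal axis, percent). The line is the median and the bands are the 25th to 75th and 10th to 90th percentiles of tested loci in bins of 2% GC, and the points are the 10 genes; Kmt2d (58.3% GC, -0.15) lies below the 10th percentile of its bin, -0.093.

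The partner subunits gave a mixed picture. Of 12 other genes of the H3K4 methyltransferase complexes, 11 were found, 1 fell and 0 rose in edgeR's quasi-likelihood test, where 0.904% and 0.614% of tested loci did. At an unadjusted p under 0.05, 3 were lower and 3 higher, against 10.8% and 9.7% of loci, and their median log2 fold change was -0.0054. The one that fell was Psip1, which encodes the chromatin tether LEDGF of the menin complexes. It had 286 and 289 CPM in the controls and 236 and 256 CPM after morphine (log2 fold change -0.22, SE 0.050, edgeR adjusted p = 0.0498). Its exons overlap another locus, and the call was lost when the length and GC trends were removed (-0.079, edgeR adjusted p = 0.385) and without morphine replicate 1 (-0.17, edgeR adjusted p = 0.427). The largest positive value was that of Pagr1a, a subunit of the KMT2C and KMT2D complexes, with 28.7 and 32.3 CPM in the controls and 36.2 and 34.5 CPM after morphine (log2 fold change 0.21, SE 0.073, edgeR adjusted p = 0.137). Its value was 0.30 without control replicate 2 (edgeR adjusted p = 0.0266), 0.13 without control replicate 1 (edgeR adjusted p = 0.634) and 0.042 with length and GC trends removed (edgeR adjusted p = 0.841).

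Enzymes that counter or resemble the 10 were also examined. Of 6 H3K4 demethylases 5 were tested, and edgeR's quasi-likelihood test called 0. At an unadjusted p under 0.05, 3 were lower, against 10.8% of tested loci. All 5 had values below 0, as did 49.7% of all tested loci, with a median of -0.16. With length and GC trends removed, 4 were below 0, where 49.2% of all loci were, Kdm5c was at 0.029 and the median was -0.074. The lowest was Kdm1b, with 70.0 and 66.3 CPM in the controls and 51.9 and 60.1 CPM after morphine (log2 fold change -0.28, SE 0.071, edgeR adjusted p = 0.0662), in a locus that overlaps another. Its value was -0.18 both without morphine replicate 1 (edgeR adjusted p = 0.499) and with length and GC trends removed (edgeR adjusted p = 0.199). Without morphine replicate 2 it was -0.39 (edgeR adjusted p = 0.0317). Kdm5c was nearest to 0 at -0.027 (edgeR adjusted p = 0.774), and Kdm5d, on the Y chromosome, had 0 reads in every library. The edgeR exact test called 2 of the 5 lower, Kdm5a and Kdm1b, where 2.3% of tested loci fell, and DESeq2 called 3, with Kdm5b, where 5.02% fell. Of the 6 core genes of PRC2, the opposing complex, edgeR's quasi-likelihood and exact tests called 0 (2 were lower at an unadjusted p under 0.05 in the former), and DESeq2 called Suz12 lower (adjusted p = 0.0464). In the quasi-likelihood fit 5 were below 0 and the median was -0.070. This median was -0.042 without morphine replicate 1 and -0.12 without morphine replicate 2. Suz12 was lowest (-0.18, edgeR adjusted p = 0.107) and Ezh1 highest (0.042, edgeR adjusted p = 0.749). With length and GC trends removed, 3 of the 6 were below 0, Suz12 was at -0.032, Ezh2 was lowest at -0.092, and Rbbp4 (0.021) and Rbbp7 (0.018) changed sign. The related genes Ash1l (-0.20, edgeR adjusted p = 0.156) and Kmt2e (-0.090, edgeR adjusted p = 0.494) were not called by any of these tests. Their values were -0.066 and 0.041 with length and GC trends removed, and -0.11 and -0.039 without morphine replicate 1.

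The libraries carried the markers of the labelled cells. All 10 stem cell markers were detected, and edgeR's quasi-likelihood test called 0 (2 lower and 1 higher at an unadjusted p under 0.05, against 10.8% and 9.7% of loci). The edgeR exact test, in which 1.58% of tested loci rose, called Pou5f1 higher (log2 fold change 0.23, adjusted p = 0.0308). DESeq2, in which 3.25% rose and 5.02% fell, called Pou5f1 higher (adjusted p = 0.00347) and Tfcp2l1 lower (-0.19, adjusted p = 0.0292). With length and GC trends removed, Pou5f1 was at 0.10 (edgeR adjusted p = 0.245) and Tfcp2l1 at -0.11 (edgeR adjusted p = 0.292). The summed level of the 10 was 5514 and 5410 CPM in the controls and 5570 and 5452 CPM after morphine. Markers of other lineages were lower in sum. Trophoblast markers (4) summed to 14.3 and 14.8 CPM in the controls and 17.2 and 16.8 CPM after morphine, and primitive endoderm markers (4) to 18.5 and 16.7 against 19.4 and 20.4 CPM. Neural markers (4) summed to 148 and 151 against 162 and 155 CPM. Mesoderm markers (3) stayed below 1 CPM in sum, and fibroblast feeder markers (6) gave 10.3 and 11.5 against 12.5 and 10.8 CPM, with Dcn at 0 reads. Sums of trophoblast, primitive endoderm and neural markers were higher in both morphine libraries, but in the first and last of these lists a single gene made up most of the sum. Krt8 had 9.61 and 11.1 CPM in the controls and 12.7 and 13.1 CPM after morphine, while the libraries of the 2 conditions overlapped for Cdx2, Elf5 and Eomes. Tubb3 held 103 and 110 against 117 and 111 CPM of the neural sum, and Sox1 had a log2 fold change of -0.055 (edgeR adjusted p = 0.766). With length and GC trends removed, 2 of the 4 neural markers were below 0, with a median of -0.011. All 4 primitive endoderm markers had values above 0 (median 0.21), where 49.7% of all tested loci were below 0, and 3 of the 4 were above 0 with these trends removed (median 0.13). Leaving out 1 library gave medians from 0.13 to 0.26, and without morphine replicate 1 a single marker of the 4 was below 0. The part of these markers in the values of the 10 genes was not tested.

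The same 3 of the 10 loci had a nearby H3K27me3 peak in both conditions as the lists were deposited, and with equal numbers of the strongest peaks Kmt2a no longer had one in morphine replicate 2. A peak within 5 kb of the 5′ end in all 4 libraries was found at 3 of the 10, where 17.0% of 18179 tested loci with a strand had one. The other 7 had none in any library, as did 67.0% of those loci. The number with a peak in both morphine libraries and neither control was 0 (1.16% of loci), and the number with the reverse pattern was also 0 (1.07%). The peak lists hold 10305 and 13778 peaks in the controls and 8681 and 12282 after morphine. They give no read counts, and the control library used in peak calling is not given in the sources used here, so presence and rank within a library are described and enrichment is not. The peaks within 5 kb covered, in sum, 8000 and 7217 bp in control libraries but 7748 and 7622 bp in those treated with morphine. The difference of 76.5 bp was smaller than the spread between replicates (pooled SD 397 bp, two-sided exact permutation p = 1, where 2 against 2 libraries cannot go below 0.33). The direction of this sum was not stable: it was -1295.5 bp with peaks scoring at least 100 and -1246.5 bp with equal numbers of the strongest peaks. It also adds genes that differed in opposite directions, with narrower Kmt2c peaks and wider Kdm6b peaks after morphine, whose widths are given below.

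**Figure D4:**
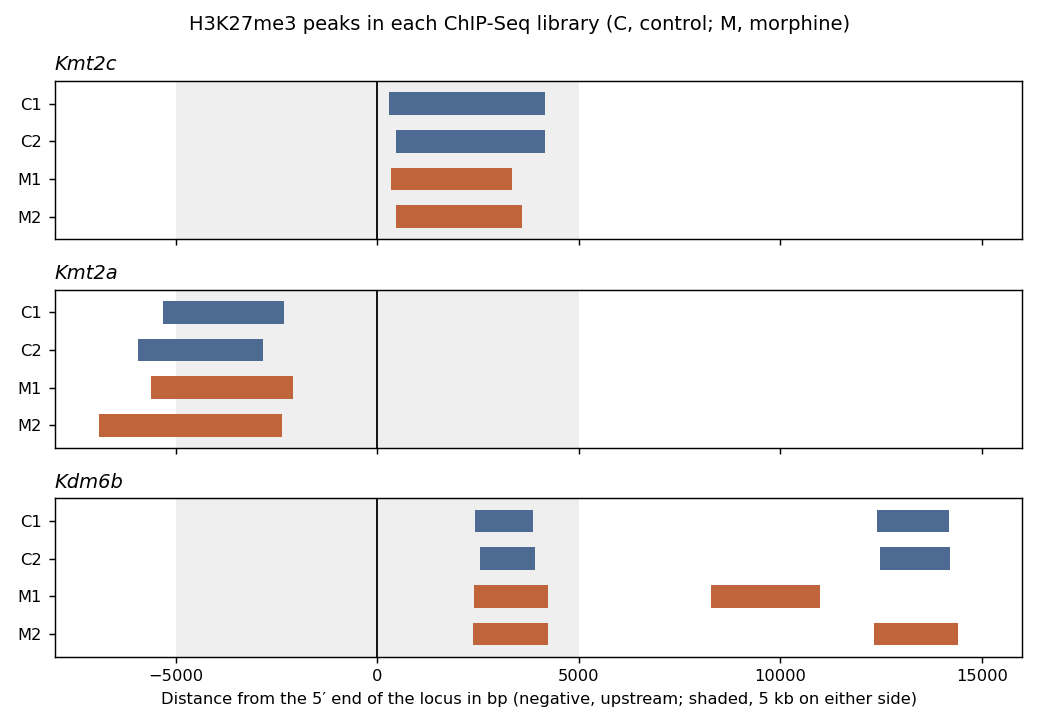
Position of the H3K27me3 peaks near and over Kmt2c, Kmt2a and Kdm6b in each ChIP-Seq library, as distance from the 5′ end of the locus in bp along the gene's strand (control libraries C1 and C2 blue, morphine libraries M1 and M2 orange, the 5 kb on either side shaded). The Kmt2c peak starts within 471 bp downstream in every library, the Kmt2a peak lies upstream, and the second Kdm6b peak of M1 lies apart from those of the other libraries.

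Kmt2c carried the strongest peak of the set. It started 295 and 464 bp downstream of the 5′ end in the control libraries, where it was 3855 and 3696 bp wide. After morphine it started 340 and 471 bp downstream and its width was 3008 and 3114 bp. Its far edge thus lay nearer to the gene's start in both morphine libraries, while its near edge overlapped between the conditions. The score ranked at percentiles 92.9 and 96.5 in the controls, against 92.9 and 93.9 after treatment, which overlap. A transcript on the opposite strand, 4831440E17Rik, begins 755 bp from the common region.

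Kmt2a and Kdm6b had peaks whose rank differed between conditions, in opposite directions. The Kmt2a peak lay upstream, from -5310 to -2311 bp and from -5934 to -2841 bp in control replicates 1 and 2. In morphine replicates 1 and 2 it ran from -5616 to -2087 bp and from -6894 to -2355 bp. Its score, -10 times the log10 of the caller's p-value, was 103 in both controls and 54.0 and 60.5 after morphine. Among the peaks of its own library it ranked at percentiles 63.8 and 64.9 without morphine but 8.37 and 20.7 with it, near the bottom of the latter lists. The Kdm6b peak, 2384 to 4245 bp downstream at its widest, scored 70.6 and 77.3 in the controls and 105 and 112 after morphine. Its percentiles were 35.3 and 44.3 in the controls and 65.6 and 69.2 after morphine, so both morphine libraries ranked it higher, and it was also wider there (1826 and 1862 bp against 1455 and 1361 bp).

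Across the 3095 loci with a peak in all 4 libraries, the best percentile was higher in both morphine libraries at 14.5% and lower in both at 24.8%. The mean percentile moved by -49.8 points at Kmt2a, 27.6 points at Kdm6b and -1.35 points at Kmt2c. Over those loci the 5th, 50th and 95th percentiles of this shift were -29.7, -1.65 and 23.3 points. Since the lists differ in length, the peaks were also ranked among the 8681 strongest of each library, the length of the shortest list, an alternative chosen after the data had been seen. The Kdm6b percentiles were then 23.2 and 11.6 in control libraries, as against 65.6 and 56.4 with morphine. Kmt2a had 57.1 and 44.3 without morphine and 8.39 in morphine replicate 1, and its peak in morphine replicate 2 was not among the strongest 8681. Kmt2c stayed between 91.3 and 94.5 in all 4. With only peaks scoring at least 100, Kdm6b would count as marked in both morphine libraries and neither control, and Kmt2a as the reverse, patterns that 0.781% and 0.963% of the 18179 loci had at this score. The Kmt2a scores of the controls, 102.9 and 102.8, lie just above this threshold. RNA of Kmt2a had a log2 fold change of -0.14 and RNA of Kdm6b one of 0.078, and neither passed the test, as given above.

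**Figure D5:**
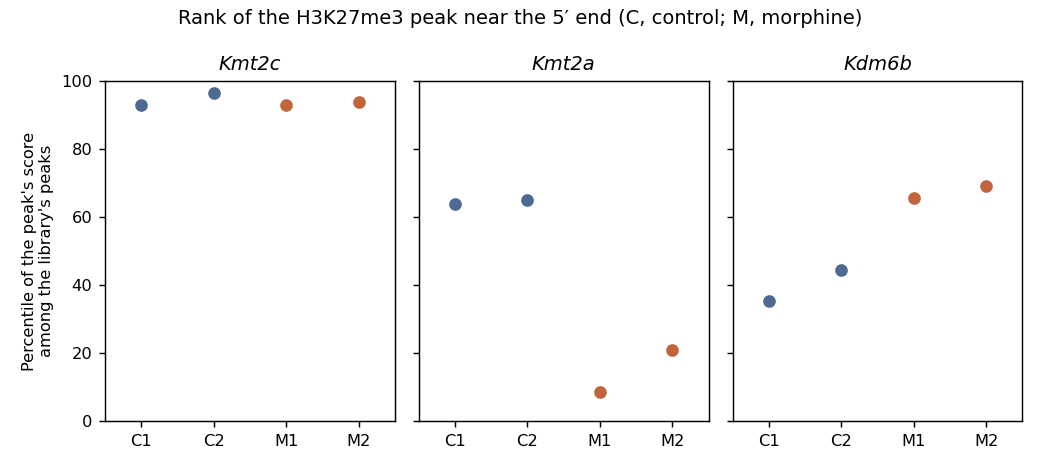
Percentile of the score of the peak near the 5′ end among all peaks of the same library (vertical axis, 0 to 100) at Kmt2c, Kmt2a and Kdm6b, 1 point a ChIP-Seq library (control C1 and C2, morphine M1 and M2). Kmt2a goes from 63.8 and 64.9 in the controls to 8.37 and 20.7 after morphine, and Kdm6b from 35.3 and 44.3 to 65.6 and 69.2.

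Kdm6b was also the only one of the 10 with a second peak over its body, although not at 1 place in all libraries. It lay 12386 to 14187 and 12468 to 14202 bp downstream of the 5′ end without morphine, and at 12310 to 14399 bp in morphine replicate 2. Morphine replicate 1 had no peak there and a different one, at 8267 to 10968 bp, which overlapped none of these. Kdm6bos, a transcript on the opposite strand, starts at chr11:69401513, where the 5′ end of Kdm6b is chr11:69413806. That start adjoins the peak found in 3 libraries, so this peak lies at the start of another transcript as well as over Kdm6b. The score of the peak shared by 3 libraries ranked at percentiles 8.45 and 76.0 in the controls and 18.4 in morphine replicate 2, between the controls, and the separate peak of morphine replicate 1 at 23.6. The bodies of Kdm6a, Kmt2a, Kmt2b, Kmt2d, Wdr5, Ash2l, Rbbp5 and Dpy30 held 0 peaks in all 4 libraries.

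At the 7 loci without a nearby peak, the distance to the nearest one varied widely, and it was not set beside that of other loci. For Kdm6a the nearest peak was 1249916 to 1897594 bp from the 5′ end, the farthest of the set. It was 217644 to 272674 bp for Dpy30, 93531 to 94106 bp for Ash2l, 68555 to 69386 bp for Rbbp5 and 43074 to 43204 bp for Kmt2b. For Wdr5 the control libraries had it 162275 and 162276 bp away, downstream of the gene, whereas with morphine the nearest was upstream, at 87976 and 88120 bp. Near Kmt2d it was 21226 to 21394 bp in 3 libraries and 105600 bp in morphine replicate 2, where the peak upstream of the gene was missing. The assembled 5′ end of Rbbp5 lies 5384 bp from the nearest start in GENCODE vM21. Other annotated starts lie up to 7612 bp away at Ash2l and 7741 bp away at Dpy30, outside the 5 kb window. With annotated starts in place of assembled 5′ ends the same numbers of genes had peaks (3 in both libraries of each condition and 7 in none).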

How the data were processed

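The authors deposited raw counts per assembled locus (Hisat2 2.1.0 on mm10, StringTie 1.3.6, featureCounts 1.6.4, per the submitters' processing notes and the methods). Strand and multi-mapping settings are not given in the sources used here, so overlapping loci and near-identical copies are uncertain. Totals ran from 25081266 to 29531096 counts per library. Counts were filtered with filterByExpr, TMM-normalized and tested with edgeR's quasi-likelihood test (4.0.16, R 4.3.3), Benjamini-Hochberg adjusted over 20350 loci. SE was taken from the fold change and its F statistic. In simulated data of the same size with 200 changed loci, the tests were checked before use. Replicates differed by more than sampling noise (chi-square per degree of freedom 5.75 between controls, 3.37 between morphine libraries). DESeq2 1.42.0 served as an alternative.

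For ChIP-Seq the authors deposited a MACS peak list per library (Bowtie2 2.3.5.1, mm10, p-value 1e-05) with a score, -10 times the log10 of the p-value per the values, whose minimum is 50. It was used only for rank and thresholds. The labels and the methods name different antibody suppliers. Distances run from the 5′ end of the locus. Permutation tests used scipy 1.17.1.

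The named genes were the 10 members, called genes of the listed complexes and the largest rise and fall of a list. Members and lists (other complex subunits, related genes, H3K4 demethylases, PRC2, lineage markers) were chosen with earlier results of these data known. Where a symbol had several loci, that with most counts was used, and Setd1a was not matched. Alternatives were the test, scaling, count filter, replicate block, removal of length and GC trends (natural splines, 5 degrees of freedom), an FDR of 0.01, a window of 1 kb, a score of at least 100, equal peak numbers, annotated starts and leaving out each library. Calls of every list under all RNA settings, and peak ranks in lists of equal length, were added after the data had been seen.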

Additional observations from a re-analysis of the deposited data

How the results depend on the processing

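The number of the 10 genes called was 0 in the edgeR quasi-likelihood fit, and also with RLE scaling, total counts, removal of the length trend, removal of length and GC trends, and an FDR of 0.01. It was 1 in the edgeR exact test (Kdm6a), 2 with DESeq2, with no count filter and with the replicate block (Kdm6a and Kmt2c each time), and 1 with the replicate block and length and GC trends removed (Kmt2d, adjusted p = 0.0193). These settings also called more loci in all: 2.3% of loci fell in the exact test, 5.02% with DESeq2, 3.42% with no count filter and 3.39% with the replicate block, against 0.904% in the quasi-likelihood fit, and 0.846% with the block and both trends removed, against 0.162% with the trends alone removed. With the replicate block the adjusted p was 0.0256 for Kdm6a and 0.0183 for Kmt2c. The difference between the 2 control libraries and that between the 2 morphine libraries had a correlation of 0.0264 across 20350 tested loci. The sources used here do not say whether same-numbered libraries were handled together, and this correlation cannot show it. Leaving out 1 RNA library gave 0 to 2 calls. Leaving out control replicate 2 gave 2 (4.53% of all loci fell), leaving out morphine replicate 2 gave 1 (Kmt2c, 1.99% of loci), and leaving out morphine replicate 1 gave 0 (0.0141% of loci). Over all of these fits the adjusted p ran from 0.00334 to 0.493 for Kdm6a, from 0.00188 to 0.564 for Kmt2c and from 0.0193 to 0.902 for Kmt2d. The cause was not tested.

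Of 130 log2 fold changes of the 10 genes under 13 alternatives, 110 kept their direction and side of the threshold, 11 passed it and 9 changed sign. Those were Kdm6b (-0.037) and Kmt2b (-0.066) with length and GC trends removed, the same genes with the block added (-0.035 and -0.066), Wdr5 with total counts (0.012), without control replicate 2 (0.038) and without morphine replicate 2 (0.0011), and Dpy30 with the length trend removed (-0.018) and without morphine replicate 1 (-0.028). Leaving out 1 library gave -0.049 to 0.038 for Wdr5 and -0.028 to 0.045 for Dpy30.

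Among other complex subunits, 0 were called with length and GC trends removed, and 0 to 2 when 1 library was left out (0 without morphine replicate 1). H3K4 demethylases had 2 calls (Kdm5a and Kdm1b) in the exact test and with the replicate block, and 0 to 2 when 1 library was left out. PRC2 had 0 to 1 when 1 library was left out (Suz12, without control replicate 2 or morphine replicate 2). With no count filter, 3 H3K4 demethylases (Kdm5b also), 2 PRC2 genes (Suz12 and Ezh2) and 2 other subunits (Psip1 and Wdr82) were lower, and DESeq2 called 3, 1 and 1.

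Within 1 kb of the 5′ end, 1 gene (Kmt2c) had a peak in both libraries of either condition. With a score of at least 100, 1 gene (Kdm6b) had a peak in both morphine and neither control library (0.781% of loci) and 1 (Kmt2a) the reverse (0.963%), and the summed coverage after morphine differed by -1295.5 bp (exact permutation p = 0.333). With equal peak numbers it differed by -1246.5 bp (exact permutation p = 0.667), and 3 genes had a peak in both controls and 2 in both morphine libraries. For the 1 kb window and for equal peak numbers the share of all loci was not computed. These counts of genes thus have no background to be read against. Leaving out 1 ChIP library gave differences from -315 to 468 bp. With 2 libraries a group, no peak comparison can pass a threshold, and the lists give no depth behind a peak.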
